A study of Mus musculus with 6 samples.

Results

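Goblet-like secretory cells were selected in the lung libraries on the measured UMI counts of a few genes, and 140 of 70427 lung cells met the selection. A UMI (unique molecular identifier) count is the number of distinct captured RNA molecules of a gene in a cell. A barcode counted as a cell with at least 1500 UMIs in the Bdnf libraries or 700 UMIs in the Hgf libraries and at most 25% of them from mitochondrial genes. A cell was chosen when at least 3 of 6 marker genes (Scgb3a1, Reg3g, Bpifb1, Bpifa1, Muc5b and Tff2) had 2 UMIs or more and the 5 exclusion genes Foxj1, Pecam1, Col1a2, Ptprc and Rtkn2 had at most 1 UMI in total. The exclusion genes mark ciliated, endothelial, mesenchymal, immune and type 1 alveolar cells. The members were 49 cells in the control lung of the Bdnf pair (Bdnf lox/lox), 68 in Bdnf iPCKO, 20 in the Hgf lox/lox control and 3 in Hgf iPCKO.

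The study removed secreted factors from pericytes, the contractile cells that wrap capillaries, and sequenced single cells of lung and cerebral cortex. The Bdnf and Hgf iPCKO mice carried lox/lox alleles of the named gene with Pdgfrb(BAC)-CreERT2, a transgene that makes a tamoxifen-activated recombinase in pericytes and other Pdgfrb-expressing cells, and the controls carried the lox/lox alleles without CreERT2. The labels of every sample, controls included, give 50 µg tamoxifen on each day from postnatal day 1 to 3, and lungs were taken at postnatal day 21 and depleted of cells positive for CD45 or Ter119. Each genotype was 1 library of pooled cells from 2 mice, so no test between genotypes was possible, and every interval given here is a 95% interval for counting error only.

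Airway secretory cells line the conducting airways. Club cells secrete secretoglobins and carry many detoxifying enzymes, whereas goblet cells make the gel-forming mucins MUC5B and MUC5AC that bind inhaled particles for clearance by cilia. In the mouse, cells rich in Scgb3a1, Reg3g and BPI fold proteins are known from the larger airways, where they add antibacterial proteins to the airway lining fluid.

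The label was checked against marker genes. The cells carried club markers beside the goblet markers that chose them. At least 5 of 8 club markers had 2 UMIs or more in 48 of 49 Bdnf control and 68 of 68 Bdnf iPCKO cells. The Hgf control and Hgf iPCKO gave 20 of 20 and 3 of 3. This order of libraries is kept throughout. The 3 Hgf iPCKO members each had all 8 club markers but only 3 goblet markers. They had no UMI of Reg3g, Bpifa1, Muc5ac, Agr2, Ltf or Clca1, so their goblet label is weak. The files hold no anatomical position, so the cells are called goblet-like secretory cells here, without an airway level. Of the 9 submucosal gland markers, Lpo, Dcpp1, Dcpp2, Dcpp3, Smgc and Sox10 had no UMI in members of any library. Ltf, Lyz1 and Sox9 had UMIs in the first 3 libraries, and the list summed to 1761, 539, 810 and 23.0 CPM in members against 254, 67.3, 168 and 95.2 CPM in club-like cells. The median member was at 237, 208, 206 and 0 CPM, so the sums rested on few cells. In AT2-like (type 2 alveolar) cells, with at least 5 AT2 markers, the list was higher, at 2679, 3021, 2636 and 1290 CPM. Of immune cells, the 10 markers had no UMI in members of any library. The AT2 markers were measurable in members, and Sftpc made up over 1% of all UMIs in 3, 5, 2 and 0 of them. A Bdnf control member had all 11 AT2 markers, with 482 UMIs of Sftpc beside 3, 2 and 3 of Scgb3a1, Bpifb1 and Bpifa1. An Hgf control member had 10 of 11, with 291 UMIs of Sftpc beside 9 of Scgb3a1. Basal-cell markers reached 3 of 9 in 2, 3, 0 and 0 members. Ciliated markers reached 3 of 12 in 6, 4, 2 and 0 members. The highest numbers were 10 of 12 in a Bdnf control member, 4 in Bdnf iPCKO and 8 in the Hgf control. These members reached the limit of 4 markers used below for ciliated-like cells. The goblet label is less certain for members rich in AT2 or ciliated markers. Of the 6 neuroendocrine markers only Syt1 had UMIs in members, in Bdnf iPCKO.

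The lung libraries held 69403166 to 186701379 UMIs and 14095 to 23765 cells each. Median UMIs per cell were 7191, 5085, 3988 and 2860. Transcripts of the targeted gene over all cells were 30.1 CPM (UMIs of the gene scaled to a library total of 1000000) for Bdnf in its control and 27.9 CPM in Bdnf iPCKO, and 9.20 CPM for Hgf in its control against 2.73 CPM in Hgf iPCKO. The summed level of 10 mesenchymal markers in the lung cells other than goblet-like was 8782, 8100, 4566 and 1582 CPM. Both Hgf transcripts and these markers were lower in Hgf iPCKO than in its control. The parts of mesenchymal content and of recombination were not tested. The study reports reduced Bdnf and Hgf transcripts in lung pericytes of the respective mutants, and pericytes were not separated here. The same selection found 0 of 3078 and 0 of 4815 cells in the control and Nodal iPCKO cortex libraries, which allows shares of up to 0.0975% and 0.0623% (3 counts of the total). Pairs of lung libraries shared up to 432 cell barcodes, close to the 436 given by independent draws, and no member barcode was shared.

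Members were deeper than the cells of their library at the median, but not in every case. Their median UMI count was 8771, 14235, 11872.5 and 14196, and ranged from 1509 in a Bdnf iPCKO cell to 54224 in a Bdnf control cell. Mitochondrial genes took a median of 15.2%, 15.8%, 14.0% and 16.0% of their UMIs, against 9.58%, 9.73%, 9.44% and 8.88% over all cells. The 6 markers together had a median level of 43278, 39593, 68273 and 2706 CPM per member. The Hgf iPCKO library had the lowest median, with its 3 members between 2184 and 2783 CPM. The lowest members of the other libraries were at 563, 2099 and 2628 CPM. At the edge of the selection, cells with exactly 3 markers numbered 10, 15, 3 and 3. Their 6 markers took a median of 1.14%, 2.05%, 0.365% and 0.271% of UMIs. Cells just outside, with 2 markers and the same limit on the exclusion genes, numbered 0, 13, 5 and 3, at 0.191% in Bdnf iPCKO, 0.845% in Hgf control and 0.428% in Hgf iPCKO.

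The share of goblet-like cells differed by a larger ratio between the Hgf libraries than between the Bdnf libraries. Members were 0.293% of cells in the Bdnf control (interval 0.217% to 0.387%), 0.286% in Bdnf iPCKO (0.222% to 0.363%), 0.142% in the Hgf control (0.0867% to 0.219%) and 0.0190% in Hgf iPCKO (0.00391% to 0.0554%). The intervals of the Bdnf pair overlapped widely, and those of the Hgf pair did not overlap. The near-equal Bdnf shares depended on the exclusion genes. Without that limit 84 of 16749 control and 168 of 23765 Bdnf iPCKO cells carried 3 or more markers, a higher share in Bdnf iPCKO. The counts of other airway cells ran the opposite way in the Hgf pair. Club-like cells, defined by at least 5 of 8 club markers, fewer than 3 goblet markers, the same limit on the exclusion genes and more UMIs of Scgb1a1, Scgb3a2 and Cyp2f2 than of the AT2 gene Sftpc, numbered 199, 355, 194 and 382. Ciliated-like cells, with at least 4 of 12 ciliated markers and fewer than 3 goblet markers, numbered 427, 861, 364 and 828. Members were 19.8% of goblet-like plus club-like cells in the Bdnf control (14.99% to 25.3%), 16.1% in Bdnf iPCKO (12.7% to 19.9%), 9.35% in the Hgf control (5.80% to 14.1%) and 0.779% in Hgf iPCKO (0.161% to 2.26%).

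**Figure D1:**
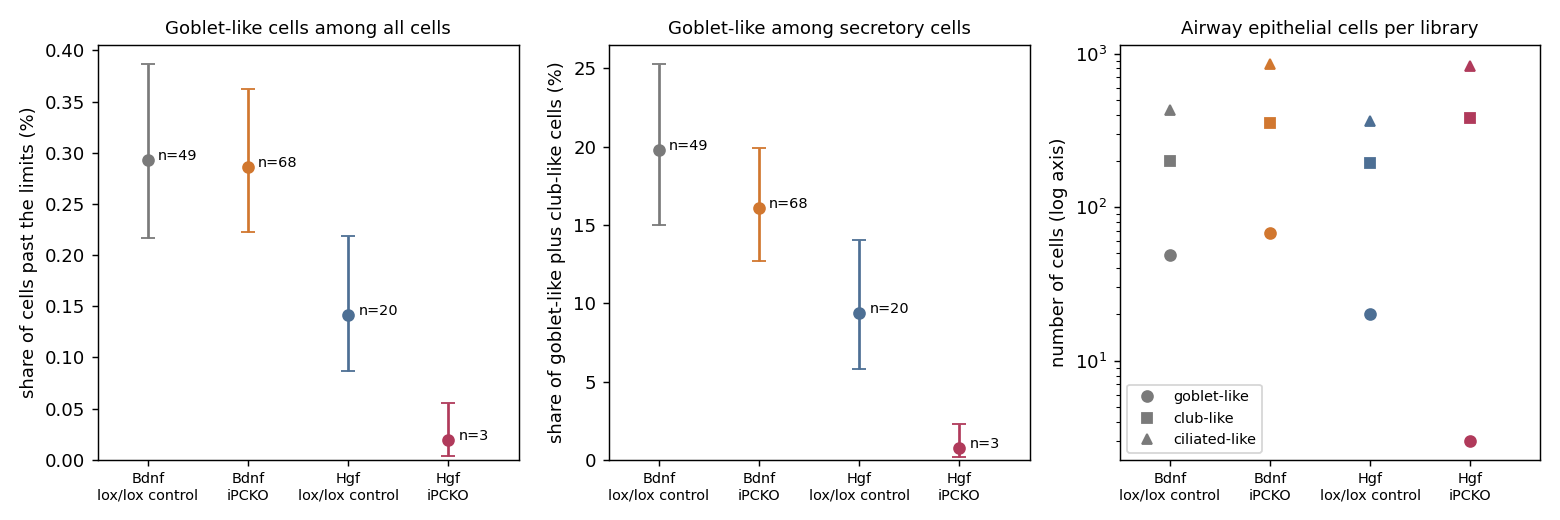
Number and share of goblet-like cells in the 4 lung libraries. The left and middle panels give the share (%) of all cells and of goblet-like plus club-like cells with exact 95% binomial intervals, and the right panel gives cell numbers on a log axis. Hgf iPCKO has 3 goblet-like cells beside 382 club-like and 828 ciliated-like cells.

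Depth differed between these libraries, with a median of 9508.5 UMIs per club-like cell in the Hgf control and 6902 in Hgf iPCKO. When every goblet-like and club-like cell of at least 5000 UMIs was thinned to 5000 UMIs, 17 of 158 cells in the Hgf control still met the marker criterion (10.8%, interval 6.39% to 16.7%). In Hgf iPCKO 0 of 234 did (0%, interval 0% to 1.56%). The Bdnf libraries gave 24 of 188 (12.8%, 8.35% to 18.4%) and 53 of 340 (15.6%, 11.9% to 19.9%). In the Bdnf control 20 of the 49 members had fewer than 5000 UMIs and were left out, against 13 of 68 in Bdnf iPCKO.

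The limit on the exclusion genes also bore on the counts. Without it, 84, 168, 37 and 8 cells carried 3 or more markers. The cells it removed numbered 35, 100, 17 and 5, with median UMI counts of 22633, 18062.5, 20803 and 14503. At least 4 ciliated markers were present in 15, 54, 15 and 5 of them. Those removed in Hgf iPCKO included 2 cells with 5 markers, at 694 and 838 UMIs of the 6 markers together, and 1 cell with 4 markers, at 253 UMIs, all above the 3 members of that library. How many of these were doublets of a goblet-like and a ciliated cell was not tested. Scrublet, a doublet caller, marked 3 of 49, 3 of 68, 0 of 20 and 0 of 3 members, and 14.2%, 15.3%, 3.57% and 3.39% of all cells. Its score limit was 0.177 in the Bdnf pair and 0.369 in the Hgf pair, so these shares cannot be compared between the pairs. Of club-like cells it marked 3 of 199, 65 of 355, 0 of 194 and 14 of 382.

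How much large airway each dissection of the lung lobes held is not recorded in the sources used here. The Hgf control mice are described as littermates of the mutants. With 1 library of 2 pooled mice per genotype, the genotype, the airway level sampled and variation between animals cannot be told apart.

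The goblet markers were also low in Hgf iPCKO over all lung cells outside the selection, while in its club-like cells they went both ways. These values do not come from the members. The other lung cells include the marker-bearing cells removed by the exclusion genes, 17 in the Hgf control and 5 in Hgf iPCKO. Those cells met the same marker criterion, and their part in the levels was not separated. The levels in other lung cells are therefore no independent support for the lower number of members. In lung cells other than goblet-like, Reg3g was at 25.8, 67.6, 28.2 and 1.92 CPM. Bpifb1 was at 21.1, 19.6, 44.3 and 1.49 CPM, and Bpifa1 at 20.0, 14.4, 7.84 and 0.208 CPM. In each case Hgf iPCKO was the lowest library. The log2 ratios of Hgf iPCKO to control were -3.88 for Reg3g (interval -4.17 to -3.60), -4.89 for Bpifb1 (-5.22 to -4.59) and -5.24 for Bpifa1 (-6.20 to -4.42). The ratios for Tff2, Muc5b and Scgb3a1 were smaller, at -3.63, -2.02 and -1.45. In club-like cells, which by definition hold at most 2 of the markers, the 6 markers summed to 29.2, 139, 166 and 263 CPM. Scgb3a1 went the other way there, at 9.47, 109, 105 and 248 CPM (log2 ratio 1.24 in the Hgf pair, 0.996 to 1.49). Bpifb1 was lower in Hgf iPCKO club-like cells, at 8.03 CPM against 52.2 CPM in the control (log2 ratio -2.70, -3.48 to -1.98). The median log2 ratio of the 6 markers in club-like cells of the Hgf pair was -0.69. Over barcodes of 10 to 99 UMIs, which hold mostly RNA outside cells, Reg3g was at 53.2, 62.3, 26.5 and 1.63 CPM and Bpifb1 at 31.8, 21.3, 58.7 and 1.90 CPM. Club genes did not share this fall. Scgb1a1 in the other lung cells was at 1883, 4827, 3955 and 10043 CPM and Cyp2f2 at 1045, 1333, 1211 and 1753 CPM, both highest in Hgf iPCKO.

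**Figure D2:**
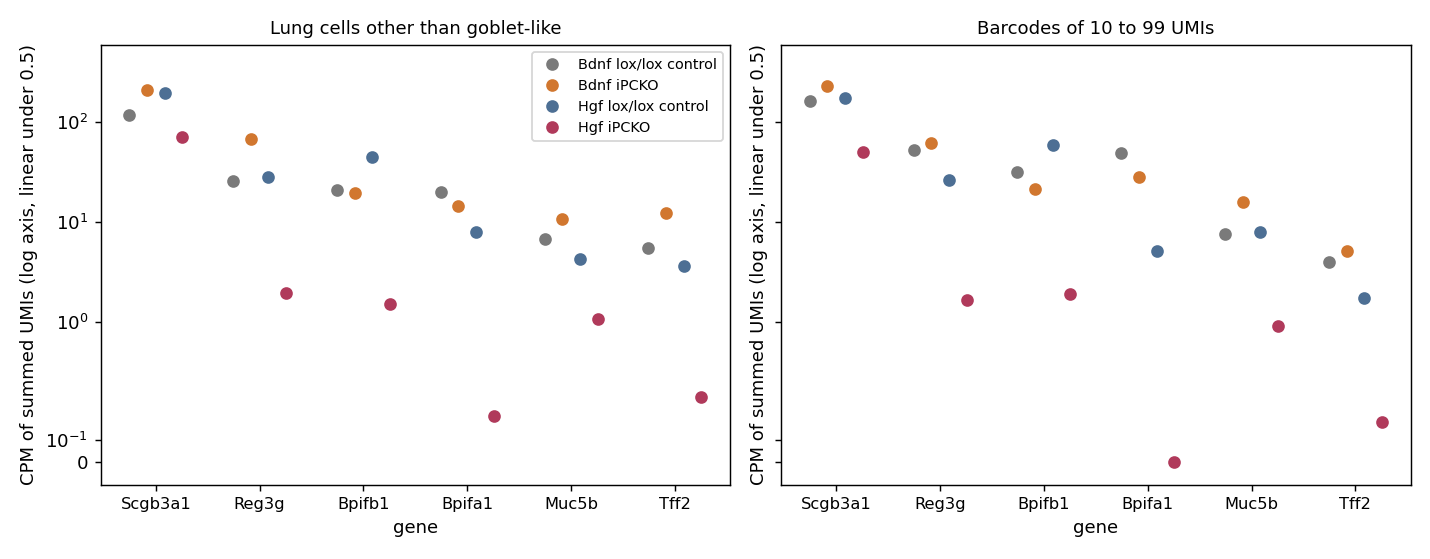
Levels of the 6 marker genes outside goblet-like cells, as CPM of summed UMIs on a log axis that is linear under 0.5. The left panel holds all other lung cells, with the marker-bearing cells removed by the exclusion genes among them. The right panel holds barcodes of 10 to 99 UMIs, with 1 point per library. The Hgf iPCKO library is lowest for all 6 genes in both panels, for example at 1.92 CPM of Reg3g in other lung cells.

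The 6 marker genes chose the cells, so their levels are given as a description. Scgb3a1 (secretoglobin 3A1, a small secreted protein; GRCm39 chr11:49549630-49555945) was the most abundant, at 22115 CPM in the Bdnf control, 26393 in Bdnf iPCKO, 40270 in the Hgf control and 1747 in Hgf iPCKO. It had UMIs in every member. Its median was 95, 363, 611.5 and 20 UMIs per cell. The 3 Hgf iPCKO cells had 48, 20 and 8 UMIs, and some members of other libraries lay as low, down to 2 UMIs in a Bdnf control cell. Scgb3a1 also gave UMIs in 5.60%, 6.53%, 3.24% and 2.75% of endothelial-like cells, which should lack it, at median depths of 4472.5, 3550, 2320 and 2098 UMIs. Thinned to 2000 UMIs per cell the endothelial-like shares were 2.58%, 3.37%, 2.32% and 1.88%, and these give the background level in cells that should lack the gene. Free RNA and doublets were not told apart in it.

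Reg3g (chr6:78443246-78445859), a secreted lectin that kills gram-positive bacteria, was at 7220, 7748, 6194 and 0 CPM. It reached 2 UMIs in 44 of 49, 65 of 68, 18 of 20 and 0 of 3 members. The Hgf iPCKO value of 0 rests on 43495 UMIs, which allows up to 69.0 CPM.

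Bpifb1 and Bpifa1 encode secreted BPI fold proteins of the airway lining, and lie close together on chromosome 2 (chr2:154032738-154062289 and chr2:153984800-153991139). Bpifb1 was at 3121, 3514, 9312 and 552 CPM and reached 2 UMIs in 44, 58, 20 and 2 members. Bpifa1 was at 5081, 2277, 1435 and 0 CPM but was present in fewer cells, with 2 UMIs or more in 29, 34, 10 and 0 members. A single cell held 33.5% of the Bpifa1 UMIs of the Bdnf control members and 33.8% of those of the Hgf control. Bpifa1 thus varied widely between members of the same library, with a median of only 3, 1.5, 1.5 and 0 UMIs per cell.

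Muc5b (chr7:141392807-141426821), the main gel-forming mucin of healthy airways, was at 899, 1996, 861 and 207 CPM, and reached 2 UMIs in 33, 57, 18 and 3 members. Tff2 (chr17:31360023-31363262), a trefoil peptide secreted with mucus, was at 969, 1426, 647 and 46.0 CPM and reached 2 UMIs in 33, 50, 11 and 1 members. All 6 markers were present together in 15, 26, 7 and 0 members. Within the Bdnf control, members with Muc5b had a median of 15745 UMIs and those without 2717.5, so absence of Muc5b went with low depth.

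**Figure D3:**
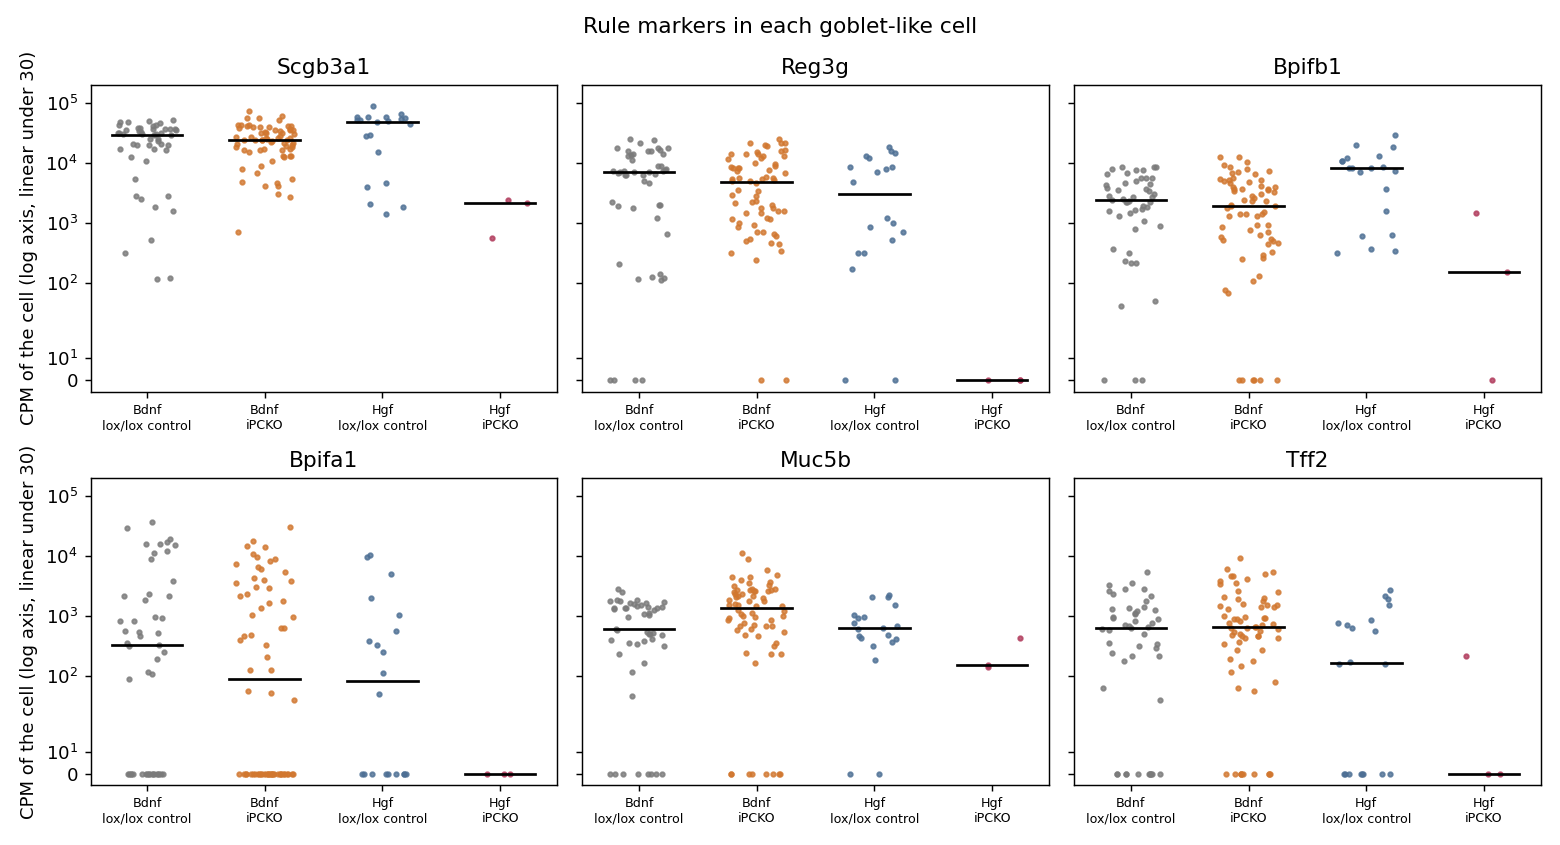
The 6 marker genes in each of the 140 goblet-like cells, 1 point per cell, as CPM of the cell on a log axis that is linear under 30, with the median of each library as a bar. The 3 Hgf iPCKO cells lack Reg3g and Bpifa1, and Bpifa1 reaches 2 UMIs in 29, 34 and 10 members of the other libraries while the rest lie at or near 0.

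The other mucus genes were at lower levels. Muc5ac (chr7:141342709-141372968), the gel-forming mucin that lies next to Muc5b and rises in allergic airways, was at 71.9, 213, 40.4 and 0 CPM. UMIs of Muc5ac were found in 34.7%, 60.3%, 35.0% and 0% of members and in 2.01%, 2.54%, 2.58% and 0.524% of club-like cells. After random thinning to 2000 UMIs per cell, with 5, 6, 0 and 0 shallower members omitted, the shares were 13.6%, 30.6%, 5.00% and 0%. Agr2, the disulfide isomerase needed for mucin folding, was at 144, 257, 283 and 0 CPM, against 0.758 to 1.21 CPM in club-like cells of the first 3 libraries. Fcgbp, a mucus component that binds the mucin network, was at 359, 503, 12.1 and 23.0 CPM. The 2 Hgf values of Fcgbp rest on 3 UMIs and 1 UMI.

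Several genes outside the selection were far higher in members than in other lung cells. The selection used all genes of these cells only through the markers, but markers and other genes come from the same cells, so the ratios are descriptions. Among 250 genes with at least 20 UMIs in members of every library, the highest ratio in its lowest library belonged to Pigr, the receptor that carries IgA into the lumen, at 35.9 to 86.9 times the level of other lung cells. Retnla, a resistin-like cytokine of type 2 immunity, followed at 28.6 to 56.3 times. It was at 9204, 10015, 9797 and 3127 CPM in members, beside 707, 1301, 1091 and 320 CPM in club-like cells. Scgb3a2, a secretoglobin of club cells, had ratios of 21.03 to 40.6. Its level in members was 44980, 51296, 57349 and 35958 CPM, above the club-like cells of the same libraries at 18599, 19407, 21572 and 12280 CPM. Among the next were Gabrp, a GABA receptor subunit, Slc16a11, a monocarboxylate transporter, and Sult1d1, a sulfotransferase. Gabrp was at 1020, 988, 1116 and 1104 CPM, while club-like cells held 928, 599, 861 and 497 CPM.

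Further genes among the 20 were Cp, Gsto1, Cxcl17, Cyp2f2, Chd9, Wfdc2, Gsta3, Cldn10, Depp1, Aldh1a1, Ccnd1, Tmem176a and Pon1. Cp, the copper carrier ceruloplasmin, was at 1896, 1374, 2535 and 3334 CPM. Cxcl17, a mucosal chemokine, was at 1410, 1512, 1528 and 1379 CPM in members against 125, 203, 237 and 568 CPM in club-like cells. Wfdc2, a secreted protease inhibitor, was at 5599, 4304, 7714 and 6484 CPM. Cyp2f2, Gsta3, Cldn10 and Aldh1a1 are club-cell genes and were no higher in members than in club-like cells in the first 3 libraries, with the exception of Aldh1a1 in Bdnf iPCKO, at 4423 against 3969 CPM.

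The requirement for 20 UMIs in all libraries was limited by the 3 Hgf iPCKO cells, and the same ranking over the other 3 libraries took in 1565 genes. This ranking was chosen after the values had been seen. Clca1, a secreted metalloprotease that processes mucus, led it, at 4025, 3133 and 101 CPM in members and 0, 1.09 and 0 CPM in club-like cells. Agr2 was second. Next were Fam3d, a secreted peptide, at 106, 116 and 93.0 CPM, and Ltf (lactoferrin, an iron-binding antibacterial protein) at 1407, 311 and 732 CPM. Among the further genes were Lypd2 (1582, 1260 and 1274 CPM), Chad (1033, 1127 and 1019 CPM), Pglyrp1, a peptidoglycan-binding protein (523, 406 and 243 CPM), and the unnamed transcript 4930441J16Rik (427, 392 and 1516 CPM). Fut9, a fucosyltransferase, and St8sia6, a sialyltransferase, both act on glycans and were at 106, 180 and 80.9 CPM and at 226, 269 and 166 CPM. Of these genes, Agr2, Fam3d, Clca1, Ltf, St8sia6, Fut9 and 4930441J16Rik had no UMI in the 3 Hgf iPCKO members, while Chad was at 276 CPM, Lypd2 at 414 CPM and Retnla at 3127 CPM.

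**Figure D4:**
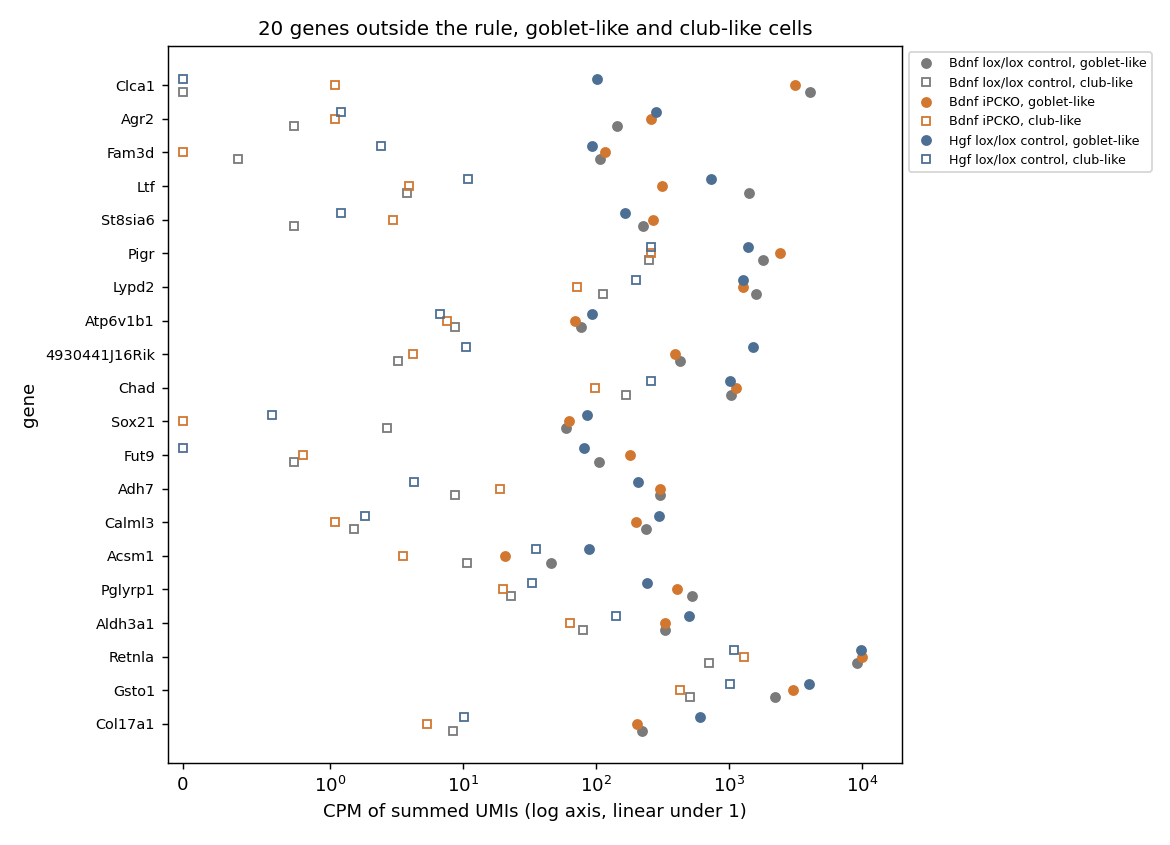
The 20 genes outside the selection with the highest ratio of goblet-like cells to other lung cells in 3 libraries, as CPM of summed UMIs on a log axis that is linear under 1. Filled points are goblet-like and open squares club-like cells of the same library. Clca1 is at 0 to 1.09 CPM in club-like cells, and the Hgf control lies far below both Bdnf libraries for this gene.

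Some genes differed between the Bdnf and Hgf controls, which are both lox/lox controls of postnatal day 21. Clca1 was at 4025 CPM (interval 3868 to 4187) in the Bdnf control and 101 CPM (65.4 to 149) in the Hgf control. Chil4, a chitinase-like lectin, was at 1127 and 16.2 CPM, and Cyp2a5, a cytochrome P450 of coumarin and nicotine oxidation, at 2224 and 301 CPM. Bpifb1 went the other way, at 3121 and 9312 CPM. A single cell held 33.2% of Clca1 and 49.0% of Chil4 in the Bdnf control. Clca1 reached 2 UMIs in 27 of 49 Bdnf control members and in 4 of 20 Hgf control members. Allele, litter and library cannot be told apart here. Chil4 has a near-identical paralogue, Chil3, and the counts split shared reads by estimation, so its level is uncertain.

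Members also varied within a library. Tff2 and Bpifa1 are among the genes that chose the cells, so their presence among members depends on the selection. Clca1 was often found in the same cells as Tff2, Muc5ac and Chil4. In the Bdnf control, 25 of 27 members with 2 or more UMIs of Clca1 also had Tff2, against 8 of 22 without, at median depths of 8771 and 8917 UMIs. In Bdnf iPCKO these were 37 of 41 and 13 of 27, with a larger difference in depth (16115 and 10570 UMIs). Muc5ac was found in 28 of 41 Bdnf iPCKO members with Clca1 and 4 of 27 without, and in 8 of 27 and 2 of 22 of the Bdnf control. Clca1 was found in 15 of 29 members with Bpifa1 and 12 of 20 without in the Bdnf control, and in 23 of 34 and 18 of 34 in Bdnf iPCKO. Ltf was found in 16 of 29 with Bpifa1 and 5 of 20 without there, in 18 of 34 and 9 of 34 in Bdnf iPCKO, and in 8 of 10 and 4 of 10 in the Hgf control. The basal keratin Krt15 reached 2 UMIs in 3, 4 and 2 members of the first 3 libraries, and each of these 9 cells also had Ltf. Without Krt15, Ltf was found in 18 of 46, 23 of 64 and 10 of 18 members. Members with Krt15 were deeper, at medians of 17634, 32759.5 and 14398.5 UMIs against 8494, 14069.5 and 11872.5 UMIs. These counts are descriptions of genes chosen after the values had been seen.

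The transcription factors of the lists were present at low levels. Klf5 was at 322, 364, 501 and 368 CPM, Foxa1 at 270, 276, 255 and 276 CPM, and Sox2, which specifies conducting airway epithelium, at 247, 229, 190 and 138 CPM. Foxa1 and Sox2 were lower in club-like cells of each library, with Sox2 at 169, 158, 125 and 98.4 CPM. Of the receptors for the deleted factors, Met, the HGF receptor, was at 123, 75.6, 84.9 and 69.0 CPM in members and 107, 89.4, 117 and 59.0 CPM in club-like cells. Ntrk2, the BDNF receptor, had 2, 0, 0 and 0 UMIs in members. Hgf had no UMI in members of any library, and Bdnf had 2, 1, 0 and 0 UMIs. Notch2 was at 124, 155, 117 and 230 CPM, and its target Hes1 at 448, 419, 400 and 529 CPM.

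The Bdnf pair addressed what removal of Bdnf from pericytes changed in these cells. Counts were summed over members, and a gene counted as changed in level when the log2 ratio of CPM, iPCKO over control, was 1 or more in size among genes whose UMIs summed to 20 or more over the pair. Of 7630 such genes, 341 (4.47%) were higher and 306 (4.01%) lower in Bdnf iPCKO by this limit, and the median log2 ratio was -0.03. With equal weight for each cell the counts were 813 and 569. The counting interval lay on 1 side of 0 for 214 of the higher and 227 of the lower genes, which turns this split around. The shares of 4.47% and 4.01% are the background against which the counts of every list in this pair stand. Muc5b and Muc5ac were higher and Bpifa1, Ltf and Chil4 lower. Muc5b and Bpifa1 are among the genes that chose the cells, so their levels among members depend on the selection. The log2 ratio of Muc5b was 1.15 (interval 1.01 to 1.29) in members and 1.24 (0.19 to 2.43) in club-like cells. In barcodes of 10 to 99 UMIs it was 1.06 (0.23 to 1.89), but in ciliated-like cells -0.50. Muc5ac had a log2 ratio of 1.57 (1.09 to 2.07), from 44 UMIs in 17 control cells to 206 UMIs in 41 iPCKO cells, with a log2 ratio of 1.38 in other lung cells and -1.57 in ciliated-like cells. The other lung cells include the marker-bearing cells removed by the exclusion genes, 35 in the control and 100 in Bdnf iPCKO.

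Of the 10 mucins and trefoil factors listed, 7 had enough UMIs. Muc5b, higher, and Tff2 (log2 ratio 0.56) chose the cells. Of the 5 others Muc5ac was higher and none lower, beside 4.47% and 4.01% over all genes, and Fcgbp, Muc4, Muc1 and Muc20 had log2 ratios of 0.48, 0.11, -0.10 and -0.66. Of the 13 genes of mucin granule assembly 9 had enough UMIs, with 1 higher (Galnt12, an enzyme that starts mucin glycosylation, log2 ratio 1.28, 0.34 to 2.33), none lower and a median of 0.45. Agr2 had a log2 ratio of 0.84 (0.48 to 1.21) and Creb3l1, a secretory transcription factor, 0.49 (0.09 to 0.90). The median for granule assembly was -0.20 in club-like cells, 0.12 in other lung cells and 0.31 in barcodes of 10 to 99 UMIs, and -0.03 for all genes in members. Members of Bdnf iPCKO were deeper than those of the control. Of these genes, thinned shares are given above for Muc5ac only, and such shares do not measure the part of depth in the ratios.

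Of 30 defence genes listed, Reg3g among them, 14 had enough UMIs, with 0 higher and 3 lower (Ltf, Chil4 and Lyz1, a lysozyme), beside 4.01% lower over all genes, and a median of -0.19. Reg3g, which also chose the cells, had a log2 ratio of 0.10, and Wfdc2, Cp and Pigr had -0.38, -0.46 and 0.42. The lower values rested on few cells, and Chil4 was higher in other lung cells, at a log2 ratio of 0.93. Those cells include the removed marker-bearing cells, which were more numerous in Bdnf iPCKO. For each gene 1 control cell held a large part of the UMIs, at 52.5% for Ltf, 49.0% for Chil4 and 98.0% for Lyz1. Cells with any UMI of Ltf were 25 of 49 in the control and 43 of 68 in Bdnf iPCKO, and 13 of 44 (29.5%) and 20 of 62 (32.3%) after thinning to 2000 UMIs. For Chil4 they were 21 and 39 without thinning, in members of unlike depth (medians of 8771 and 14235 UMIs). Bpifa1, which also chose the cells, had a log2 ratio of -1.16 (-1.24 to -1.08). A single control cell held 1040 of its UMIs (33.5%), and another held 853. The first is the same cell that held 52.5% of Ltf, so the lower values of both genes lean on it. The interval does not cover such differences between cells. Bpifa1 was also lower in barcodes of 10 to 99 UMIs, at -0.82 (-1.31 to -0.36).

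**Figure D5:**
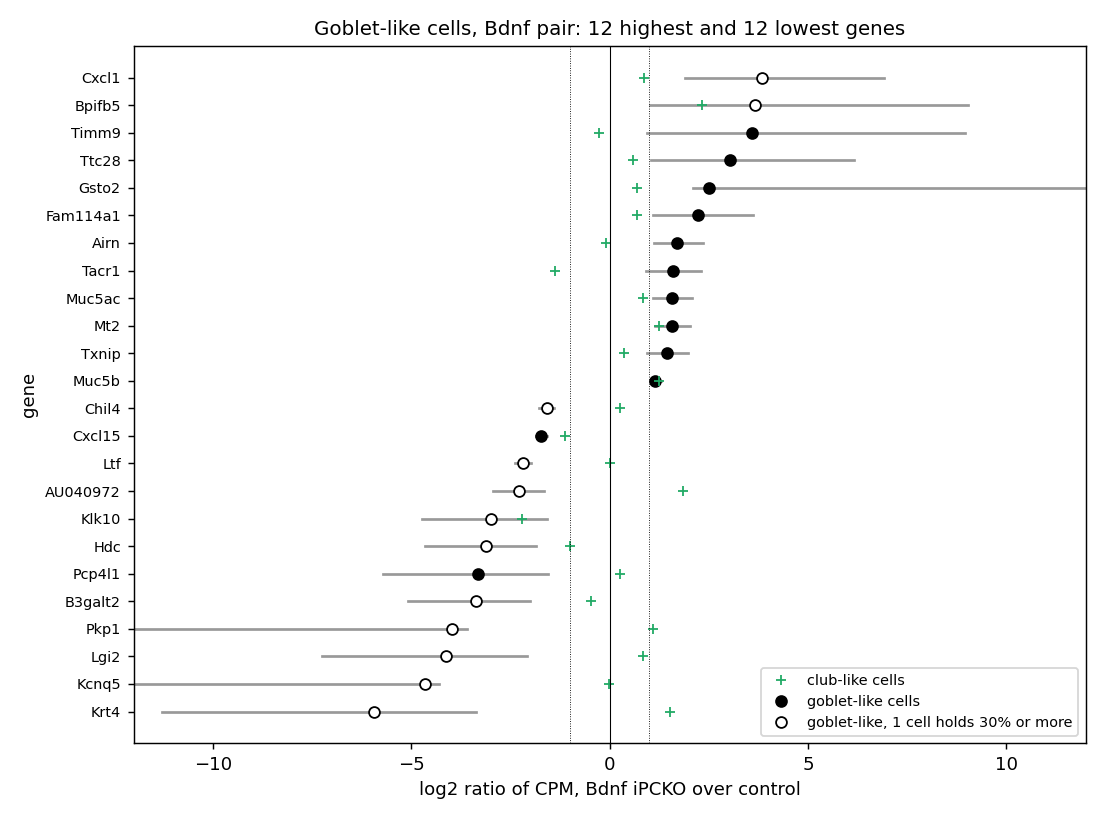
Log2 ratio of CPM, Bdnf iPCKO over control, for the 12 highest and 12 lowest genes in goblet-like cells by the interval bound nearest to 0. Lines are 95% counting intervals, drawn to 12 at most, dotted lines mark 1 and -1, open points mark genes with 30% or more of the UMIs of the higher library in 1 cell, and crosses give club-like cells. Most of the lower genes are open points, and Muc5b and Mt2 lie close to their club-like values.

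The 12 genes highest in Bdnf iPCKO by the bound of the interval nearest to 0 included Mt2, a metallothionein, at 86.6 and 257 CPM (log2 ratio 1.57, 1.14 to 2.03), which was also higher in club-like cells (1.24) and in the other lung cells (1.02). Txnip, a thioredoxin-binding protein, had a log2 ratio of 1.45 (0.96 to 1.98) in members and 0.48 in other lung cells. Tacr1, the substance P receptor, had 23 and 109 UMIs (log2 ratio 1.59, 0.93 to 2.30) but was -1.37 in club-like cells. Gsto2, a glutathione transferase, had 0 and 27 UMIs, which is a log2 ratio of 2.51 against a floor of 3 UMIs in the control library, with a lower bound of 2.11. The imprinted non-coding RNA Airn was above the limit in members (1.71, 1.11 to 2.34) and was at -0.10 in club-like cells. Airn overlaps other transcripts of its locus, and no strand setting of the counting is given in the sources used here. Cxcl1, a neutrophil chemokine, went from 2 UMIs to 45, with 31.1% of these in a single cell. The others were Fam114a1, Ttc28, Bpifb5, Timm9, Muc5b and Muc5ac.

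Among the 12 lowest genes, Kcnq5 and Pkp1 came from a single control cell each and Krt4, a keratin of squamous epithelium, had 87.2% of its UMIs in a single cell. Lgi2, B3galt2 and Klk10 were likewise held by a single cell for over 50% of their control UMIs. Cxcl15, a chemokine made in lung epithelium, was broader. It had UMIs in 46 of 49 and 57 of 68 members and went from 2432 to 739 CPM (log2 ratio -1.72, -1.85 to -1.59), with -1.11 in club-like cells and -0.88 in other lung cells. Hdc, the enzyme that makes histamine, had UMIs in 13 control and 5 iPCKO members (log2 ratio -3.12, -4.66 to -1.84). Pcp4l1 had them in 10 and 3. The others were Ltf, Chil4 and AU040972.

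The remaining lists are given by their counts. All 8 club genes had enough UMIs, with none past the limit and a median log2 ratio of -0.25, against -0.34 in club-like cells. Of 21 xenobiotic enzymes 20 had enough UMIs, with none past the limit and a median of -0.26. Secretoglobins (3 of 5), ion and water transport (12 of 19), Notch (6 of 9) and HGF and BDNF signalling (6 of 10) had none past the limit, with medians of 0.26, -0.05, 0.29 and -0.10. Met was at -0.70 (-1.18 to -0.21). Of 21 airway transcription factors 19 had enough UMIs, and Sox9 and Grhl1 were higher, beside 4.47% over all genes, with a median of 0.03. Of 14 genes of the type 2 response 8 were measured, with Muc5ac higher, Chil4 lower, beside 4.47% and 4.01%, and a median of -0.02.

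Of 16 circadian genes 13 had enough UMIs, with 4 higher (Per3, Dbp, Nr1d2 and Cry2), none lower and a median of 0.51, beside 4.47% higher over all genes. The median of the same genes was 0.49 in other lung cells and 0.14 in club-like cells. Txnip and Mt2 were higher among 10 measured genes of the glucocorticoid and fasting response, beside the same 4.47%, with a median of 0.10 in members, 0.44 in club-like and 0.51 in other lung cells. Cxcl1, with 31.1% of its iPCKO UMIs in a single cell, and Birc3 were higher among 8 measured genes of the NF-kB and IL-17 response, beside 4.47%, with a median of 0.23. None of 14 immediate early genes and none of 10 heat shock genes was past the limit, with medians of 0.26 and -0.47. Of 17 measured genes of endoplasmic reticulum folding Sdf2l1 was lower, and of 6 measured genes of antigen presentation Cd74 was lower, both beside 4.01%. Mki67, Top2a and Cdk1, which mark dividing cells, were lower among 7 measured cell cycle genes, beside 4.01%, but each had UMIs in 3 control and 3 iPCKO members only.

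Markers of other cell types moved with these results. The summed level of the 12 ciliated markers in members was 3311 CPM in the Bdnf control and 2761 in Bdnf iPCKO, and 4 of 7 measured ones were lower (Tmem212, Dynlrb2, Cfap126 and Tppp3), beside 4.01% over all genes. The summed level of the 11 AT2 markers was 10966 and 7005 CPM, and Cxcl15 and Hc were lower. The 9 basal markers stood at 257 and 217 CPM, with Krt5 higher and Krt15 lower among 4 measured. Their part in the results was not tested.

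The Hgf pair addressed the same question for Hgf, but it rests on 20 control cells and 3 iPCKO cells. Whether these 3 are the same kind of cell as the control members was not tested. Of 1935 genes with 20 or more UMIs over the pair, 258 (13.3%) were higher and 313 (16.2%) lower in Hgf iPCKO by the same limit, and 77 and 606 under median-of-ratios scaling. The counting interval lay on 1 side of 0 for 175 of the higher and 105 of the lower genes, which turns the split around. All 6 genes that chose the cells were lower, which was possible because a cell needed only 2 UMIs of 3 of them. Scgb3a1 had a log2 ratio of -4.53 (-4.87 to -4.20), Bpifb1 of -4.08 (-4.72 to -3.50) and Muc5b of -2.06 (-3.21 to -1.11). Reg3g and Bpifa1 had no UMI in the iPCKO members, and against a floor of 3 UMIs their log2 ratios were -6.49 and -4.38, with upper bounds of -6.19 and -4.07.

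Ltf, Gp2, a glycoprotein that binds bacteria, 4930441J16Rik and Ly6a were among the 12 lowest genes and had no UMI in them. Sftpc and Lyz2 were also among the lowest, but 53.0% and 76.5% of their control UMIs came from a single cell each. S100a6 had 334 UMIs in 18 of 20 control members and 2 UMIs in 1 of 3 iPCKO members, while its log2 ratio in club-like cells was 0.81. Retnla was lower, at a log2 ratio of -1.65 (-1.91 to -1.40). Of 8 club genes, Scgb1a1 was lower at -1.25 (-1.35 to -1.15), Cldn10 higher at 1.91 (1.27 to 2.53), and the median was 0.43 beside 0.01 for all genes. Of 9 measured mucosal defence genes 4 were lower (Lyz2, Ltf, Pglyrp1 and Reg3g, which chose the cells) and none higher, beside 16.2% and 13.3% over all genes. Wfdc2, Cp, Pigr and Cxcl17 had log2 ratios of -0.25, 0.40, -0.45 and -0.15. Of 18 measured xenobiotic enzymes 3 were higher, among them Fmo2 and Ces1d, and 3 lower (Cyp2a5, Gsto1 and Aldh3a1). The shares over all genes, 13.3% higher and 16.2% lower, stand beside the counts of the club genes and of these enzymes.

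The genes higher in Hgf iPCKO members were often higher in other cells too. The 12 highest were Rgcc, Rps6-ps4, Gm12918, Fmo2, Rbm3, Selenbp1, Clic3, Gdpd1, Nrbp2, Rpl32, Cldn10 and Herpud1. Fmo2, a flavin monooxygenase, had a log2 ratio of 1.92 (1.49 to 2.35) in members, 1.31 in club-like and 1.91 in other lung cells. Selenbp1 had 1.69, 1.16 and 1.75, and Herpud1, of endoplasmic reticulum quality control, 1.85, 1.51 and 1.33. Cldn10 differed, at 1.91 in members and -0.44 in club-like cells. Rps6-ps4 and Gm12918 may share reads with ribosomal protein genes and are uncertain. The remaining lists had at most 13 measured genes in this pair. Of these, 6 of 9 heat shock genes were lower, beside 16.2% over all genes, with a median of -1.81, against -0.84 in club-like cells and -0.02 in other lung cells. Herpud1, Dnajb9 and Pdia6 were higher and Hsp90b1, Calr and Sel1l lower among 13 genes of endoplasmic reticulum folding, and Fos was lower among 13 immediate early genes, beside 13.3% higher and 16.2% lower over all genes. Of 9 measured ion and water transport genes 2 were higher and 4 lower. Of 5 measured mucins and trefoil factors 4 were lower, among them Muc5b and Tff2, which chose the cells. The 12 ciliated markers summed to 2151 CPM in control and 966 CPM in iPCKO members, and 3 of 9 measured AT2 genes were lower. The same shares over all genes stand beside these counts. Each of these values depends on 3 cells, in which 1 cell held 63.2% of Scgb3a1 and 68.4% of Retnla UMIs.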

How the data were processed

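Single cells of postnatal day 21 lung and postnatal day 12 cortex had been captured on the BD Rhapsody system and sequenced as whole-transcriptome libraries. Per the labels and the study's methods, the authors mapped reads with STAR 2.7.10a (STARsolo) to GRCm39 with Gencode annotation, without a cell filter, and shared multi-mapped reads by expectation maximisation, so the deposited values are estimated counts, of which 8.50% to 9.95% of entries were not whole. They were summed as deposited and rounded only for intervals. The deposited cell-barcode segment lists were not used.

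Levels were CPM of UMIs summed over cells, with exact Poisson, Clopper-Pearson and conditional binomial intervals (scipy 1.17.1). Only the conditional binomial interval of the ratios was run on simulated data. Those were Poisson counts without variation between cells, so the run checks the calculation and not the fit to these cells. Doublets were treated by the exclusion genes, and Scrublet (scanpy 1.11.5, expected rate 0.1) served as an alternative. Class markers needed 2 UMIs, and ciliated-like, club-like and endothelial-like cells needed 4, 5 and 3 markers. Named genes were the list genes of highest CPM, the 20 genes of highest ratio to other lung cells, and the 12 highest and lowest genes per pair, and symbols listed more than once were left out. Members and gene lists were chosen with earlier results of these data known. Gene positions came from the Gencode annotation of GRCm39 matched by identifier. Results on some genes are not reported here.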

Additional observations from a re-analysis of the deposited data

How the results depend on the processing

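No paired analysis was possible because each genotype was a single library. With no limit on the exclusion genes the members numbered 84, 168, 37 and 8 (Bdnf control, Bdnf iPCKO, Hgf control, Hgf iPCKO). With no exclusion UMI allowed the Bdnf libraries held 30 and 45, and at a mitochondrial share of at most 15% the Bdnf libraries held 23 and 29 and Hgf iPCKO 1. Hgf iPCKO further held 6 members at 2 markers, 0 at 4 markers and 1 at 3 UMIs per marker, and stayed below its control under every setting tried for the cell selection. Thinning to 5000 UMIs, a setting added after seeing the data, gave goblet-like shares of secretory cells of 12.8% in the Bdnf control and 0% in Hgf iPCKO. For genes past the limit (higher, then lower), a minimum of 50 UMIs gave 79 and 61 in the Bdnf pair and 89 and 88 in the Hgf pair, fewer because fewer genes were tested. A minimum of 1 UMI with an offset of 0.5 gave 1909 and 3123, and 2869 and 1389. Equal weight per cell gave 813 and 569 in the Bdnf pair. Requiring 4 markers gave 477 and 213, a shift of the split towards higher genes. Median-of-ratios scaling moved all Hgf log2 ratios by -0.51 and gave 77 and 606. The cause of the other changes was not tested. Only B3galt2 among the named genes reversed, to 1.28 in the Bdnf pair with 4 markers. For the Hgf pair no value with 4 markers could be had, since no iPCKO cell remained. Depth limits the Hgf iPCKO members to genes above 69.0 CPM.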
